A study of Mus musculus with 9 samples.

Results

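Gene expression in the regenerated coronal suture of Twist1+/- mice (REG, 3 libraries) was compared with that in the unoperated coronal suture of Twist1+/- mice (MUT, 3 libraries). These libraries were chosen by their sample titles and are 6 of the 9 in the series. Both groups carry 1 disrupted copy of Twist1 in the C57BL/6 strain, and all mice were aged 7 months when the suture was collected. The REG mice had suture regeneration surgery at the age of 1 month, whereas the MUT mice had none. The remaining 3 libraries are from unoperated wild-type mice (WT) of the same strain and age, and they entered the fit only to estimate the spread and to place the values. The labels describe neither the procedure nor whether a given suture was open or fused, and they do not say that each library came from a different animal. The p-values therefore measure the spread between these libraries. No sham-operated group was analysed here, so regeneration and the surgery itself cannot be told apart.

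The coronal suture joins the frontal bones to the parietal bones by fibrous tissue. Its mesenchyme supplies osteoblasts to the bone fronts and keeps the joint itself unossified, in a matrix of collagen fibres and the proteoglycans that bind them. Twist1 is a basic helix-loop-helix transcription factor of this mesenchyme, and loss of 1 copy is a known cause of early fusion of the coronal suture. Values below are the deposited scaled signals, in which every library has the same 75th percentile. They compare libraries for 1 gene and do not compare genes with each other.

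The libraries of the groups differed in depth and in background. The MUT libraries held 2945636 to 10894209 estimated reads and the REG libraries 18276494 to 39377876. In the deposited matrix, REG replicates 1 and 2 are named in another form than REG replicate 3. MUT replicate 2 is likewise named unlike the other MUT libraries, and the labels do not say why. Background was measured on the genes of olfactory and vomeronasal receptors, proteins of sensory neurons. By this measure it made up 23.2%, 7.86% and 21.0% of the reads in MUT replicates 1 to 3, and from 0.509% to 0.849% in REG. The share of mitochondrially encoded genes was 3.02% ± 1.52 in MUT and 12.5% ± 2.91 in REG (mean ± SD over 3 libraries each). The part of these differences in the results below was not tested. A call is therefore described as kept when it was made in the same direction under the 4 other scalings tried and with MUT replicate 2, the MUT library of lowest background, as the only MUT library. Bone markers were present in all 6 libraries. The 24 osteoblast markers summed to 15354, 51202 and 8692 RPM (reads scaled to a library of 1000000 reads) in MUT and to 38039, 42902 and 77762 in REG.

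Twist1 itself (chromosome 12, 33957671 to 33959829, GRCm38) was not called between the groups. Its signal was 0.987, 8.08 and 0.548 in MUT and 3.76, 9.19 and 12.2 in REG, and MUT replicate 2 overlapped the REG libraries. The log2 change was 1.85 ± 0.76 (± standard error of the fit, here and below, n = 3 per group; adjusted p = 0.081, limma). With MUT replicate 2 alone the change was −0.09, adjusted p = 0.96. Both groups are Twist1+/-, so this is a check of the libraries and not of a knockout against a control.

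In all, 10653 of 29107 genes tested (36.6%) differed at an adjusted p under 0.05, of which 3432 were higher in REG (11.8% of genes tested) and 7221 were lower (24.8%). The 3 REG libraries lay above the 3 MUT libraries for 4075 genes (14.0%) and below them for 8293 genes (28.5%). The median change of all genes tested was −0.36 on the log2 scale. The balance of directions moved with the scaling and with the filter: trimmed-mean scaling gave 7245 higher and 3152 lower, total-read scaling 982 and 11455, and a 10 times stricter filter 2780 and 872. No gene called in the deposited scaling was called in the opposite direction under any of the 24 other settings. Calls were kept, as defined above, for 238 higher genes (0.818% of genes tested) and 482 lower genes (1.66%).

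The direction followed the level of a gene in WT, which takes no part in the contrast. Among 13295 genes with a mean WT signal under 1, 46.0% were lower in REG and 0.602% were higher, and the median change was −1.10. Among 333 genes at 100 or more, 71.2% were higher and 0 were lower, with a median of 2.19. This order of the medians was also seen after background subtraction, from −1.04 in the lowest to 1.17 in the highest of the 4 level classes. The filter lets a low gene pass through the group where it is high. This holds for the subtracted values too, where 23863 genes passed a filter of their own. The part of background in this order was therefore not tested. In the deposited scaling, only 2733 of the 13295 lowest genes passed on the 3 WT libraries alone. Among those 2733, 33.4% were lower and 0.988% were higher, with a median of −0.87. Protein-coding genes outside the receptor families made up 91.1% of the higher calls and 40.2% of the lower calls. They were 17731 of the 29107 genes tested, and 17.6% of them were higher and 16.4% lower. Of 4488 long noncoding RNAs, 60 were higher and 2011 lower. The receptor genes are no separate evidence, since they define the background: 707 of 1018 were lower and 3 higher. For some lists below, members are therefore also set against the median of the genes in their WT level class.

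**Figure D1:**
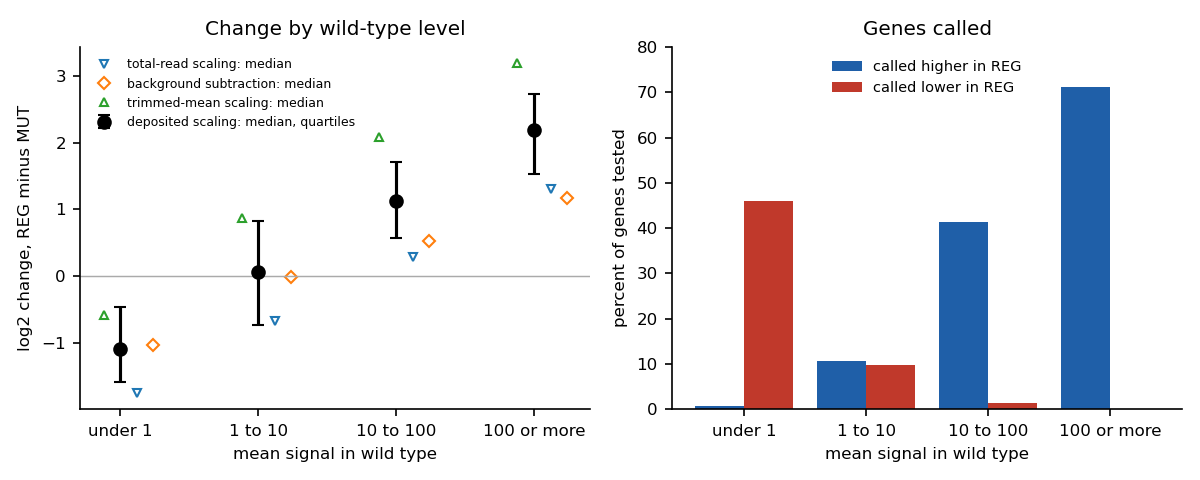
Left, median log2 change of REG minus MUT (y axis) by mean WT signal (x axis, 4 classes of genes) in the deposited scaling with quartiles as bars, and medians under 3 other scalings as open symbols. Right, percent of the genes of each class that were called higher (blue) or lower (red). The medians rise from −1.10 in the lowest class to 2.19 in the highest.

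The 12 largest increases were all genes of the extracellular matrix or of its processing. Col3a1, the chain of type III collagen (chromosome 1, 45311538 to 45349706), read 9.35, 56.4 and 19.3 in MUT and 2845, 3226 and 3686 in REG, a log2 change of 7.19 ± 0.58 (adjusted p = 0.00031, limma). Tnn, which encodes tenascin-N, a glycoprotein of periosteum and ligament, read 3.73, 1.73 and 2.24 in MUT and 318, 191 and 386 in REG. Its change was 6.67 ± 0.49 (adjusted p = 0.00018, limma) and its groups lay far apart. Postn encodes periostin, which marks periosteum and suture mesenchyme, and read 6.25, 8.75 and 7.32 in MUT and 634, 527 and 333 in REG (5.96 ± 0.43). In WT these 3 genes were at 6468 ± 2139.6, 861 ± 413 and 479 ± 209.8. Tnn had 227, 16 and 106 estimated reads in the MUT libraries, where background alone predicts 117, 10.7 and 76.7 for its exon length. In the REG libraries it had 34169, 17086 and 15857.

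The chains Col6a1, Col6a2 and Col6a3 of collagen VI, which forms beaded filaments around cells, all increased. Col6a3 read 14.8, 13.9 and 8.86 in MUT and 483, 389.9 and 496 in REG (5.17 ± 0.39), and Col6a2 and Col6a1 changed by 4.91 ± 0.36 and 4.85 ± 0.41. Within each group the values of these 3 genes lay close together, and the groups were far apart. Aspn, a proteoglycan of periosteum and ligament that binds collagen, read 0.653, 0.2 and 0.468 in MUT and 44.8, 23.9 and 41.8 in REG (5.52 ± 0.43). Its estimated reads in MUT, 39, 1 and 21, were below the 47.5, 4.35 and 31 that background alone predicts, so the size of its change is uncertain. Thbs2 and Thbs4, thrombospondins of connective tissue, changed by 4.71 and 4.55. Col16a1 and Aebp1, which encode a fibril-associated collagen and a collagen-binding protein, changed by 4.73 and 4.56. Calls were kept for 11 of the 12 genes. The exception was Timp1, an inhibitor of matrix metalloproteinases, which read 1.52, 1.5 and 0.72 in MUT and 104, 166 and 10.7 in REG (5.21 ± 0.93). It was called under all 5 scalings and lost its call with MUT replicate 2 alone, where the change was 4.95, adjusted p = 0.072.

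**Figure D2:**
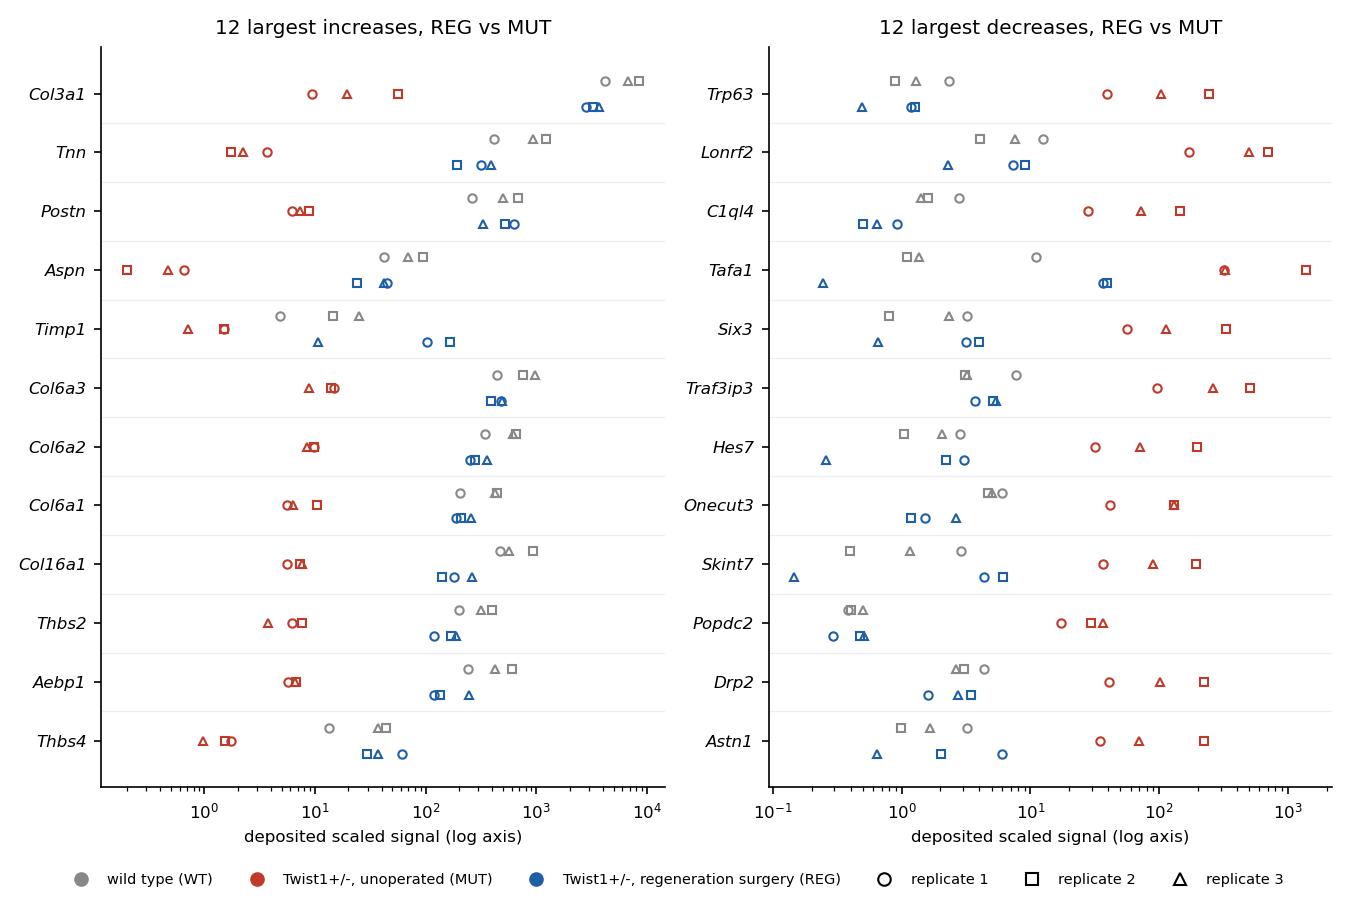
Deposited signal (x axis, log scale) of the 12 genes with the largest increases (left) and the 12 with the largest decreases (right) in each library. Circles, squares and triangles are replicates 1, 2 and 3, and colours are the groups. REG and MUT do not overlap for any of the genes shown, which was a condition for being shown, and the WT libraries lie near the REG libraries for most.

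Collagen chains differed by class. Of 11 fibrillar collagen genes, which form the banded fibrils, 9 were higher and 0 lower, with a median change of 2.22 against −0.36 over all genes tested. Against the median of its WT level class, the median member stood 0.74 higher, and 3 of the 9 calls were kept. Col5a1, a regulatory chain of fibrils, read 20.7, 71.3 and 19.4 in MUT and 524, 455 and 664 in REG (4.12 ± 0.52), and Col5a3 read 3.83, 3.79 and 3.96 in MUT and 49.9, 56.6 and 21.2 in REG (3.23 ± 0.42). Both were kept, as was Col3a1. Col1a2, a chain of type I collagen of bone, read 851, 3465 and 416 in MUT and 3490.3, 3555 and 10964 in REG (2.26 ± 0.74, adjusted p = 0.037). Here MUT replicate 2 was nearly level with REG replicates 1 and 2, and the change with that library alone was 0.57, adjusted p = 0.71. The type III and type I chains thus stood differently in MUT replicate 2: Col3a1 was at 56.4 there against 3252 ± 421 in REG.

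The 32 non-fibrillar collagens did not move as 1 group: 12 were higher, 4 lower and 16 not called, with a median of 0.12. Higher were collagen VI, the basement membrane chains Col4a1 (10.2, 12.6 and 10.03 in MUT and 102, 118 and 121 in REG) and Col4a2, and Col12a1 (16.5, 29.1 and 16.4 in MUT and 498, 495 and 331 in REG), a fibril-associated collagen of periosteum and tendon. Lower chains were at low signals, among them Col6a6 (5.96, 4.18 and 8.36 in MUT and 0.713, 2.63 and 1.13 in REG). Col4a6 (2.8, 0.967 and 2.17 in MUT and 0.285, 0.192 and 0.76 in REG) was also lower, but its change turned above 0 after background subtraction. The list median changed sign with the scaling, but 8 of the 12 higher calls and 0 of the 4 lower calls were kept.

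Enzymes and chaperones that process collagen were higher with it. Of 29 genes of collagen processing and crosslinking, 21 were higher and 1 was lower (median 2.16), and 24 changed by more than the median gene of their WT level class. Pcolce, an enhancer of the proteinase that trims procollagen, read 3.66, 7.24 and 4.51 in MUT and 43.3, 34.4 and 46.2 in REG (2.96 ± 0.37). Plod3, a lysyl hydroxylase, read 2.8, 1.82 and 3.16 in MUT and 15.5, 26.6 and 16.9 in REG (2.75 ± 0.39). Neither gene had overlapping groups. Crtap, part of the prolyl 3-hydroxylase complex, and Loxl2, a crosslinking lysyl oxidase, changed by 3.17 and 3.22. Of the 21 higher calls, only those of these 4 genes were kept. The list median with MUT replicate 2 alone was 1.47. The lower gene was Pcolce2, a second procollagen enhancer, which read 2.52, 9.59 and 3.75 in MUT and 0.525, 0.713 and 0.867 in REG.

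Of 12 small leucine-rich proteoglycans tested, which coat collagen fibrils and set their diameter, 10 were higher and 1 lower (median 2.35). The median was 1.23 with MUT replicate 2 alone, and 3 of the 10 higher calls were kept. Fmod, a proteoglycan of tendon, read 2.35, 7.25 and 1.89 in MUT and 41.4, 81.4 and 68.4 in REG (4.10 ± 0.54, adjusted p = 0.0015, limma), and Prelp read 2.21, 1.72 and 1.75 in MUT and 19.6, 13.2 and 31.8 in REG (3.19 ± 0.41). Lum, abundant in most connective tissue, read 7.52, 43.7 and 3.82 in MUT and 198, 255 and 156 in REG. Dcn, which encodes decorin, read 15, 76.1 and 6.27 in MUT and 138, 158 and 155 in REG. In both, MUT replicate 2 lay between the other MUT libraries and REG, and their calls were not kept. Kera, known from cornea, was lower (−1.47) and was low in all 6 libraries.

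Matricellular and microfibril genes, whose products link cells to the matrix or store growth factors, had 18 of 33 members higher and 2 lower (median 1.74). With 9 kept calls this list held more of them than any other of the 44 lists. Fn1, the fibronectin of provisional matrix, read 45.7, 62.8 and 38.9 in MUT and 455, 448 and 382 in REG (3.14 ± 0.39). Ltbp2, a latent TGF-beta binding protein of microfibrils, read 3.15, 1.14 and 5.33 in MUT and 40.6, 25.1 and 60.6 in REG, and Ccn2, a matricellular target of TGF-beta, read 8.12, 4.81 and 3.94 in MUT and 42.8, 23.3 and 66.6 in REG. In each of the 3 genes the lowest REG library lay far above the highest MUT library. Tnr, a tenascin of the nervous system, went the other way (6.19, 6.52 and 8.45 in MUT and 2.17, 0.358 and 0.734 in REG, −2.54).

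Genes that cut matrix and their inhibitors, counted together, were more often higher than lower. Of 25 matrix proteases and inhibitors, 11 were higher and 3 lower (median 1.90). The lower genes were the inhibitor Timp4 and proteases. Proteases were not counted apart from inhibitors. Calls were kept for 3 of the 11 higher genes and 1 of the 3 lower genes. Mmp14, a membrane-bound collagenase, read 11.9, 5.73 and 14.2 in MUT and 81.4, 293 and 89.4 in REG (3.65 ± 0.60), with REG replicate 2 the highest. The inhibitors split. Timp2 read 9.01, 8.68 and 6.08 in MUT and 108, 131 and 148 in REG (3.97 ± 0.38), while Timp4 read 3.52, 8.28 and 4.18 in MUT and 0.0281, 0.549 and 0.317 in REG (−3.09 ± 0.46), and both calls were kept.

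Genes of the endoplasmic reticulum (ER), where secreted proteins such as collagen are folded, were higher in REG with few exceptions. Of 20 ER chaperone and unfolded protein response genes, 16 were higher and 0 lower, with a median of 2.15, 1.23 after background subtraction and 1.83 with MUT replicate 2 alone. The higher calls numbered 5 after subtraction and 7 with MUT replicate 2 alone, and 4 of the 16 were kept. Hspa5, the main ER chaperone BiP, read 20.2, 21.4 and 17.9 in MUT and 132, 165 and 129 in REG (2.81 ± 0.31, adjusted p = 0.001, limma). Pdia3, a disulfide isomerase, read 11.3, 15.4 and 15.5 in MUT and 94.6, 112 and 101 in REG. P4hb, a subunit of collagen prolyl 4-hydroxylase, read 25.6, 23.5 and 9.18 in MUT and 142, 128 and 140.2 in REG. The spread within a group was small beside the gap between groups, and MUT replicate 2 was not apart from the other MUT libraries. Xbp1, a transcription factor of the unfolded protein response and of secretory cells, read 5.06, 1.93 and 1.78 in MUT and 16.5, 23.9 and 27.1 in REG (2.90 ± 0.42). These were the 4 kept calls. The 4 genes not called were Atf6, Ddit3, Dnajb9 and Hyou1, with changes of 0.04, 1.70, 0.26 and 0.97. Ddit3, which is induced in severe ER stress, read 1.66, 1.1 and 0.858 in MUT and 1.11, 12.1 and 6.44 in REG. The median of the list relative to WT was −1.96, −2.03 and −2.23 in MUT and −0.12, 0.01 and 0.24 in REG.

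**Figure D3:**
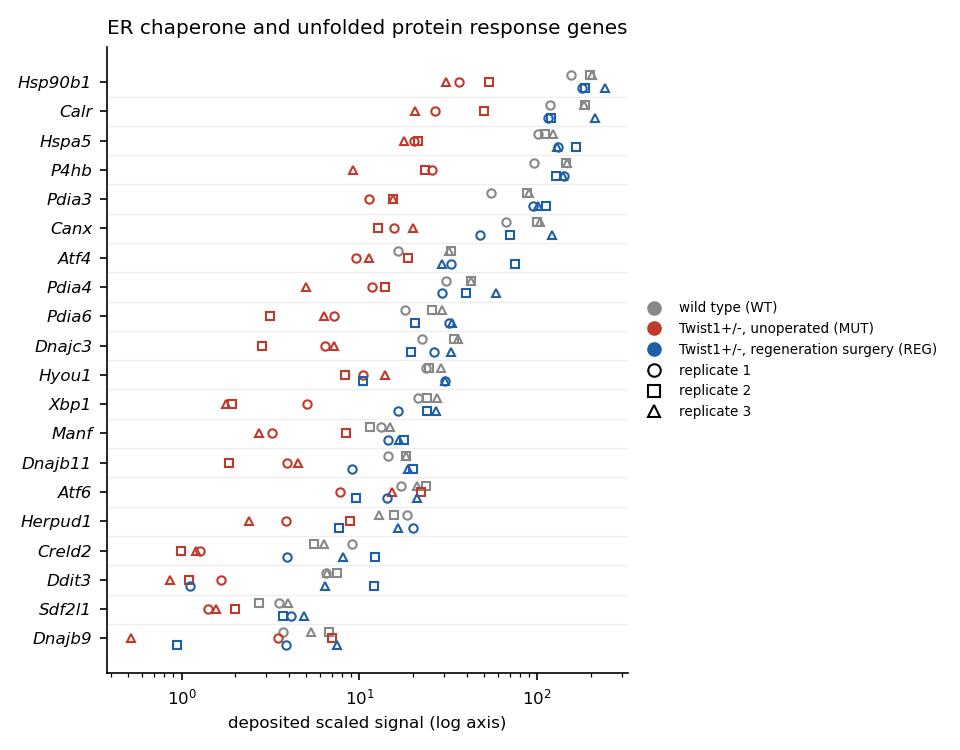
Deposited signal (x axis, log scale) of the 20 ER chaperone and unfolded protein response genes in each library, ordered by their mean in REG. Hspa5 reads from 129 to 165 in REG and from 17.9 to 21.4 in MUT, while the groups overlap for Atf6, Ddit3, Dnajb9, Hyou1 and Herpud1.

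The promoters of these genes were also searched for the ER stress response element. This element is a known binding site of the factors that drive the unfolded protein response. It was searched on both strands as CCAAT and CCACG with 9 bases of any kind between them, in the 250 bases before the RefSeq start of each gene (GRCm38.p6). A window was found for 17 of the 20 genes, and 7 of these (41.2%) held the element, against 35 of 27025 genes in the whole table (0.130%). The list was chosen by name for the unfolded protein response, so this share describes the list and not the change in REG. The stretches below show the element and its flanks in 4 genes of the group, 5′ to 3′ on the strand of the gene, with the bases searched for in capitals; CGTGG and ATTGG are the same element read on the other strand.
Hspa5 (chr2:34772010-34772058, plus strand): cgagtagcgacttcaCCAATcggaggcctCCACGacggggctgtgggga
Calr (chr8:84847060-84847108, minus strand): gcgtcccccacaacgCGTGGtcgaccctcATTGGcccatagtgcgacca
Pdia6 (chr12:17266476-17266524, plus strand): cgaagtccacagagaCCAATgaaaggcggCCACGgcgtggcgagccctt
Creld2 (chr15:88819505-88819553, plus strand): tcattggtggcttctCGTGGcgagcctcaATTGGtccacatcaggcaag
All 7 genes with the element were higher in REG (median 2.32), as were 8 of the 10 with a window and no element (median 1.89). Outside the list the element was found in 19 genes tested, of which 1 was higher and 5 were lower. These counts describe letters in a window and not binding. Creld2, which encodes an ER-resident protein, read 1.28, 0.998 and 1.21 in MUT and 3.92, 12.3 and 8.1 in REG, and Pdia6, another disulfide isomerase, read 7.24, 3.15 and 6.28 in MUT and 31.8, 20.5 and 32.9 in REG. Calr, the calcium-binding chaperone calreticulin, read 26.5, 49.9 and 20.6 in MUT and 115, 119 and 210.3 in REG. In these 3 genes, too, all REG libraries lay above all MUT libraries, but none of their calls was kept. Calr was at an adjusted p of 0.12 after background subtraction (limma, change 1.12), Pdia6 at 0.13 there (1.51) and Creld2 at 0.073 with MUT replicate 2 alone (2.50).

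Genes of protein synthesis and respiration also read higher, but with more dependence on MUT replicate 2 than the ER genes. Of 40 ribosomal protein genes, 24 were higher and 0 lower (median 2.22), and the median relative to WT was −1.84, 0.16 and −2.48 in MUT and 0.61, 0.98 and 0.26 in REG. MUT replicate 2 was thus near the REG libraries, the list median with it alone was 0.40, and 1 call was kept, that of Rps16 (6.03, 3.97 and 3.06 in MUT and 39.5, 56.2 and 35.7 in REG). Ribosomal protein genes have many processed pseudogenes that can take up reads, so single values are uncertain. Of 37 nuclear genes of the respiratory chain, 23 were higher and 0 lower (median 1.79), and 36 of the 37 changed by more than the median gene of their WT level class. Uqcrc2, a core subunit of complex III, read 2.51, 1.1 and 2.47 in MUT and 14.8, 13.7 and 11.4 in REG (2.57 ± 0.38), the only kept call of this list. The mitochondrially encoded genes were higher in 12 of 13 cases (median 2.23, 1.62 with MUT replicate 2 alone). None of these 12 calls was kept. In these bulk samples, fewer cells of a type and less RNA per cell cannot be told apart, here or below.

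**Figure D4:**
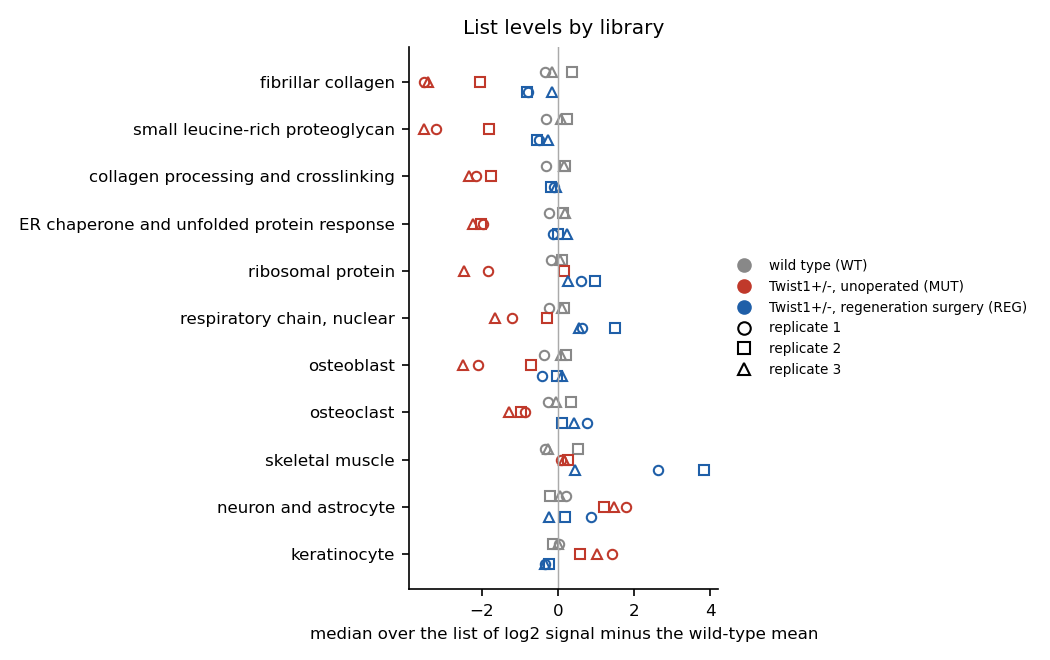
Median over each gene list of the log2 signal minus the WT mean of the same gene (x axis) for 11 lists (y axis) in each library. MUT replicate 2 (red square) is the MUT library nearest REG for ribosomal protein, respiratory chain, osteoblast, proteoglycan, fibrillar collagen and collagen processing genes. It is not the nearest for ER chaperones. REG replicates 1 and 2 stand apart for skeletal muscle.

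Of the bone cell lists, osteoblast and osteoclast markers had the most higher calls. Of 24 osteoblast markers, 12 were higher and 1 lower (median 1.69, but 0.37 with MUT replicate 2 alone). Alpl, the phosphatase that starts mineralization, read 11.8, 6.19 and 3.19 in MUT and 52.3, 70.7 and 73 in REG, and Pth1r, the parathyroid hormone receptor, read 11.9, 8.41 and 4.08 in MUT and 42.9, 59.6 and 82.2 in REG; these were the 2 kept calls. Spp1, which encodes osteopontin, read 137, 481 and 48.1 in MUT and 1731, 1955 and 1006 in REG (3.35 ± 0.74), with MUT replicate 2 again the nearest to REG. The lower gene was Msx2, a homeobox factor of skull growth, which read 2.21, 5.37 and 1.75 in MUT and 0.169, 1.86 and 0.469 in REG, with overlapping groups. Of 15 osteocyte markers, 5 were higher and 2 lower. Ank, a pyrophosphate transporter, read 4.55, 9.97 and 7.3 in MUT and 38.9, 35.1 and 50.3 in REG (2.50), and Reln, which neurons and osteocytes both express, read 23, 66.2 and 37.4 in MUT and 5.84, 6.12 and 5.07 in REG (−2.69 ± 0.40). Reln in REG was near its WT level of 6.5 ± 0.37, with a change of −0.19 between them that was not called.

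Of 20 osteoclast markers, 12 were higher and 1 lower (median 1.71, 1.75 with MUT replicate 2 alone). Their summed level was 1625, 1718 and 1579 RPM in MUT and 5248, 6694 and 2918 RPM in REG, so REG replicate 3 was the lowest of its group. Tcirg1, a subunit of the proton pump that acidifies bone, read 8.19, 9.33 and 5.86 in MUT and 50.1, 84 and 38.9 in REG (2.78 ± 0.37). Nfatc1, the main transcription factor of osteoclast formation, read 12.4, 7.64 and 11.2 in MUT and 50.3, 50.9 and 54.7 in REG (2.30 ± 0.33). Acp5, the tartrate-resistant phosphatase, read 41.7, 107 and 46 in MUT and 432, 603 and 227 in REG. Tcirg1, Mmp9 and Mmp14 had kept calls. Ostm1, a partner of the chloride exchanger of osteoclasts, was lower (−1.86 ± 0.51), with no overlap between the groups. Of 18 chondrocyte markers tested, 4 were higher and 1 was lower, and none of these calls was kept. Acan, with the smallest p of the higher genes, read 4.47, 1.17 and 4.39 in MUT and 22.2, 28 and 6.67 in REG. The chondrocyte median of 0.33 changed sign with the scaling. Of 14 tendon and ligament markers, 7 were higher and 1 lower (median 1.40).

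Markers of suture mesenchyme and skeletal stem cells went both ways. Of 28 genes, 11 were higher and 3 lower (median 1.27). Pdgfrb, a growth factor receptor of mesenchyme and pericytes, read 5.19, 6.92 and 6.66 in MUT and 51.5, 52.1 and 63.5 in REG (3.08 ± 0.34, adjusted p = 0.001, limma). Zic1, a zinc finger factor, read 54.1, 216 and 134 in MUT and 4.87, 14.1 and 12.1 in REG (−3.57 ± 0.56), and Grem1, a secreted antagonist of BMPs, read 14.1, 71.4 and 29 in MUT and 2.04, 1.3 and 3.61 in REG (−3.63 ± 0.58). For both, all REG libraries lay below all MUT libraries, and both calls were kept. Grem1 had 862, 715 and 1381 estimated reads in MUT, where the background density predicts 83.7, 7.66 and 54.7. Its WT signal was 4.32 ± 1.44, near REG.

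Signalling lists differed in how far they moved as families. Of 48 Wnt genes, 9 were higher and 5 lower, with a median of 0.02 that changed sign with the scaling. The secreted modulator Sfrp4 read 4.14, 3.79 and 3.6 in MUT and 58, 85.7 and 46.9 in REG (3.88 ± 0.49). Its relative Sfrp2 read 1.35, 2.89 and 1.34 in MUT and 15.2, 45.2 and 40.8 in REG (3.86 ± 0.50). Both calls were kept, and neither gene had overlapping groups. The ligand Wnt5a was lower (18.2, 31.8 and 18.1 in MUT and 7.49, 2.45 and 4.34 in REG, −2.24 ± 0.43), also kept, as no other Wnt gene was. Of 40 BMP and TGF-beta genes, 18 were higher and 4 lower (median 1.42), and 28 changed by more than the median gene of their WT level class. Among the 48 Wnt genes, 20 did. Among ligands, Tgfb2 read 3.92, 2.63 and 2.84 in MUT and 11.6, 21.5 and 18.1 in REG (2.29) and Gdf10 read 3.29, 2.39 and 3.54 in MUT and 13.9, 17.7 and 18 in REG (2.30). Both had kept calls, as did the antagonist Grem1 described above.

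Of 22 FGF genes, 7 were higher and 3 lower. Dusp6, a phosphatase induced by FGF signalling, read 2.96, 0.998 and 1.44 in MUT and 6.84, 14.2 and 13.5 in REG (2.49 ± 0.44), and the ligand Fgf7 read 5.58, 22.3 and 16.5 in MUT and 0.663, 2.38 and 2.12 in REG (−2.78 ± 0.61). Both calls were kept, in opposite directions. Of 14 IGF genes tested, 6 were higher and 0 lower. Igfbp5, a binding protein abundant in bone, read 16.6, 30.7 and 16.2 in MUT and 190.5, 182 and 333 in REG (3.46 ± 0.43) and had the only kept call there. Of 17 genes of interleukin 11 and gp130 signalling, 4 were higher and 1 lower. The receptor gene Il11ra1 read 1.84, 0.928 and 2.31 in MUT and 15.9, 28.8 and 22.3 in REG (3.49 ± 0.43), while its ligand gene Il11 read 1.22, 3.27 and 1.36 in MUT and 0.336, 0.178 and 0.244 in REG (−1.80 ± 0.39), a call that was not kept. Of 16 Hedgehog genes 4 were higher and 2 lower, and of 19 Notch genes 5 were higher and 0 lower. None of these calls was kept. Gas1, a Hedgehog co-receptor, changed by 2.63, and Jag1, a Notch ligand, by 2.30.

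Skeletal muscle genes set the REG libraries apart from each other. Of 18 genes, 8 were higher, 3 were lower and none was kept (median 2.01). Tnnt3, a troponin of fast muscle, read 1.5, 0.998 and 0.883 in MUT and 26.6, 92.2 and 3.19 in REG, and Mb, which encodes myoglobin, read 0.821, 0.299 and 0.63 in MUT and 23.9, 92.7 and 0.776 in REG. The summed level of the list was 661, 356 and 797 RPM in MUT and 2677, 3425 and 329 RPM in REG. REG replicates 1 and 2 were thus high and REG replicate 3 was not. With REG replicate 3 as the only REG library the list median was 0.34, against 3.07 without it. The part of muscle tissue in other genes of REG replicates 1 and 2 was not tested. Without REG replicate 3 the fibrillar collagen and ER chaperone medians were 1.77 and 1.94, and with it alone 2.54 and 2.52.

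Few calls in vessel and blood cell lists were kept. Of 20 endothelial markers, 5 were higher and 0 lower, among them Pecam1 (7.04, 9.68 and 4.81 in MUT and 16.9, 13.1 and 29.2 in REG), the adhesion molecule of endothelium. None of the 5 was called under quantile scaling, total-read scaling or background subtraction. Of 15 pericyte and smooth muscle markers tested, 7 were higher and 1 lower. Of 17 macrophage markers tested, 7 were higher and 0 lower. The smallest p was that of C1qb, a complement subunit (2.58, 2.79 and 1.97 in MUT and 20.8, 20.3 and 10.1 in REG, 2.57 ± 0.37). Neutrophil markers had 3 of 18 higher and 0 lower, and their summed level of 3045, 5092 and 2851 RPM in MUT and 9749.7, 11791 and 3609 RPM in REG put REG replicate 3 among the MUT libraries. The 16.7% of neutrophil markers called higher is near the 11.8% of all genes, and no endothelial, macrophage or neutrophil call was kept. Of 15 genes of antigen presentation, 8 were higher and 0 lower, with H2-DMb1, which loads peptides onto class II molecules, the only kept call (1.12, 0.0998 and 0.762 in MUT and 7.04, 6.64 and 3.78 in REG). Among B cell markers 0 of 17 were higher and 2 were lower. One of these was Pax5, known from B cells and the developing brain, which read 271, 1547 and 363 in MUT and 60.2, 65.6 and 12.1 in REG and had a kept call, while the other 15 genes of the list were not called. Jun, an immediate early transcription factor, read 1.9, 2.1 and 3.07 in MUT and 18.1, 16.4 and 36.1 in REG (3.07 ± 0.45) and was kept, as 1 of 10 higher genes among 20 of that group.

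The genes with the largest decreases in REG are best known from other tissues. Trp63, the transcription factor p63 of stratified epithelium (chromosome 16, 25683763 to 25892102), read 39.6, 243 and 104 in MUT and 1.19, 1.27 and 0.492 in REG, a change of −6.27 ± 0.62 (adjusted p = 0.00074, limma). Six3, a homeobox factor of forebrain and eye, read 56.2, 334 and 114 in MUT and 3.18, 4.01 and 0.656 in REG (−5.68 ± 0.75), and Hes7, the oscillating factor of somite formation, read 31.9, 198 and 70.9 in MUT and 3.05, 2.23 and 0.257 in REG (−5.44 ± 0.77). In each case MUT replicate 2 was the highest MUT library. Onecut3, a homeobox factor of liver and neurons, read 41.5, 130.1 and 131 in MUT and 1.51, 1.18 and 2.64 in REG (−5.44 ± 0.49), and Popdc2, known from heart and skeletal muscle, read 17.4, 29.6 and 36.9 in MUT and 0.291, 0.471 and 0.507 in REG (−5.11 ± 0.36). The other genes were Lonrf2, C1ql4, Tafa1, Traf3ip3, Skint7, Drp2 and Astn1, with changes from −6.08 to −5.05. Calls were kept for 11 of the 12, the exception being Tafa1 (320.3, 1394 and 324 in MUT and 36.9, 39.6 and 0.244 in REG). With MUT replicate 2 alone its change was −7.17, adjusted p = 0.084, and background subtraction was not run for it because it had no exon length. Trp63 had 2424, 2432 and 4940 estimated reads in MUT, where the receptor genes predict 169, 15.5 and 111. After background subtraction its change was −7.57, adjusted p = 0.00016.

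Of the keratinocyte markers and of the neuron and astrocyte markers 46.7% each were lower, beside 46.0% of all genes with a WT signal under 1. Not all members fall in that class. Trp63 was at a mean of 1.49 in WT, and 9.65% of genes from 1 to 10 were lower. Against their own WT level classes, the 2 list medians stood at −0.45 (keratinocyte) and −0.56 (neuron and astrocyte). Of 15 keratinocyte markers tested, 7 were lower and 0 higher (median −1.36), with kept calls for Trp63 and Sfn, an epithelial 14-3-3 protein (4.66, 16.3 and 8.89 in MUT and 0.23, 0.389 and 1.15 in REG). Krt5 and Krt14 encode the keratins of basal epidermis and are known targets of p63. Krt5 read 1.13, 0.487 and 1.03 in MUT and 1.35, 0.964 and 0.255 in REG, Krt14 read 0.932, 0.0998 and 1.31 in MUT and 0.0342, 0.396 and 0.122 in REG, and neither was called. Krt14 had 56, 0 and 61 estimated reads in MUT, where the background density predicts 35.5, 3.25 and 23.2. Of 15 neuron and astrocyte markers, 7 were lower and 0 higher (median −0.87, whose sign changed with the scaling), with kept calls for Rbfox3 (19.7, 60.2 and 40.3 in MUT and 1.83, 2.0 and 0.674 in REG), a splicing factor of neurons, and Stmn2 (5.06, 13.9 and 7.02 in MUT and 0.323, 1.98 and 1.06 in REG). Map2, a microtubule protein of neurons, read 7.62, 4.13 and 5.44 in MUT and 2.89, 3.25 and 3.45 in REG and was not called. The summed keratinocyte level was 409.6, 933 and 828 RPM in MUT and 34.5, 31 and 28.9 RPM in REG. Trp63 alone made up most of this sum in each MUT library, so the sums largely restate its decrease. Of 37 Hox cluster genes tested, which the skull is not known to express, 19 were lower and 0 higher (median −1.27), and 5 calls were kept. This share of lower calls, too, is close to that of all genes with a WT signal under 1. Hoxb9 had a WT signal above that class, and the Hox genes were not set against their own level classes.

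**Figure D5:**
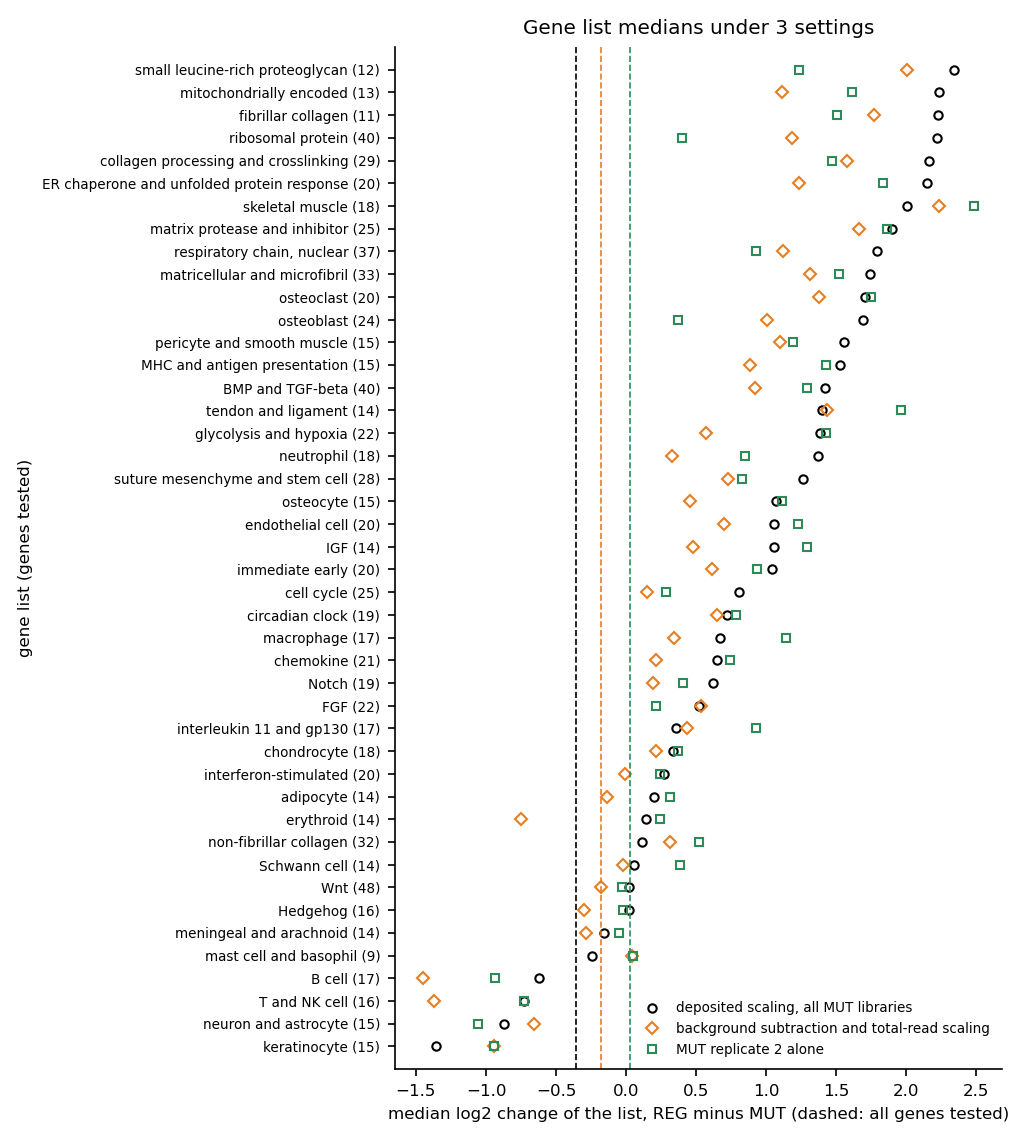
Median log2 change of REG minus MUT (x axis) for the 44 gene lists (y axis, with the genes tested) in the deposited scaling, after background subtraction with total-read scaling, and with MUT replicate 2 alone; dashed lines mark the median of all genes tested in the same setting. Matrix, ER and osteoclast lists lie to the right of the line in all 3 settings, and keratinocyte, neuron, T cell and B cell lists to the left.

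Across the 44 lists, 34 had a median above that of all genes under each of the 5 scalings and 4 had one below it. That median is set largely by low genes: against their WT level classes, 32 lists stood above and 12 below in the deposited scaling. The relative median of the small leucine-rich proteoglycans ranged from 2.09 to 2.91, that of collagen processing from 1.67 to 2.75 and that of ER chaperones from 1.41 to 2.74. Against their level classes these 3 stood 1.02, 1.04 and 0.84 higher. The medians of 18 lists changed sign over these scalings, and 6 did so relative to all genes. The 4 lists below all genes under each scaling were the B cell, T and NK cell, neuron and astrocyte, and keratinocyte markers. Against their level classes in the deposited scaling, their medians stood at −0.55, −0.02, −0.56 and −0.45 in the same order.

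REG was also set beside WT, as a position and not as a test of recovery. Of 29107 genes, 0 (0.0%) were called in REG vs WT by limma, and 2755 had an unadjusted p under 0.05. Without REG replicate 3 the count was 1616. The absence of calls therefore does not show that REG and WT are alike. Fibrillar collagens had a median of −0.54 relative to WT and ER chaperones one of −0.02. Skeletal muscle genes had one of 2.74 and respiratory chain genes one of 0.80. Single genes that lay lowest beside WT among those with the largest increases were Col16a1 (−1.74), Tnn (−1.45) and Aebp1 (−1.32), none of them called. In the authors' deposited table, 18105 of 43644 genes had an FDR under 0.05 for REG over MUT, 3356 of them higher in REG and 14749 lower.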

How the data were processed

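RNA of coronal sutures was sequenced in 9 libraries, 3 per group, with groups taken from sample titles. STAR 2.6.1d, Partek and mm10 are named in the submitters' processing notes. The authors deposited a signal per gene, from whose values each equals estimated reads plus 1 times a factor per library; the factor is inferred. The authors' deposited table of comparisons gives p-values and log2 changes; it supplied the gene names, matched on 3 statistics for all 43644 rows.

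Signals were tested as log2(value + 0.367) with limma 3.58.1 (R 4.3.3) on all 9 libraries, over the 29107 genes that reached 0.367 in 3 libraries or more, with Benjamini-Hochberg adjustment and a threshold of 0.05. Fold changes on this scale understate those of low genes. The fit was tested on simulated data. Background is the median of estimated reads per kb of exon over 1747 receptor genes (GENCODE annotation of GRCm38), subtracted from every gene by its exon length. The 4 other scalings were trimmed-mean, quantile, total-read, and background subtraction with total-read. Tables and plots used Python 3.11.15, pandas 2.3.3, numpy 2.4.6 and matplotlib 3.10.9.

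The gene lists and the comparison were chosen with earlier results of these data known. Genes named are Twist1, the 12 largest increases and decreases among called genes with non-overlapping groups (leaving out predicted genes, clones, pseudogenes, receptors and small RNAs), the 3 members of smallest p per direction in a list, and members of lists of 20 or fewer. Col4a1, Col4a2, Col12a1, Crtap, Loxl2, Fn1, Ltbp2, Ccn2, Spp1 and Tgfb2 were named after their values were seen. A result on 1 further gene that the rule names is not reported here.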

Additional observations from a re-analysis of the deposited data

How the results depend on the processing

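Effects of settings are given for the 122 named genes and for the counts of calls. Calls of REG against MUT numbered 4181 under quantile scaling (1826 higher, 2355 lower), 3767 after background subtraction (791 and 2976), 3652 with a 10 times stricter filter (2780 and 872), 6051 with only these 2 groups in the fit (1831 and 4220), 1494 with MUT replicate 2 alone (702 and 792) and 2833 with that library alone after subtraction (1811 and 1022), the last setting added after seeing the data. A lone library is assumed to vary like the other groups. Trimmed-mean scaling gave 7245 higher and 3152 lower, and total-read scaling 982 and 11455. Leaving out 1 library gave 3646 to 11674 calls, 1567 to 4291 higher and 2079 to 7383 lower; without MUT replicate 1, 2 or 3 the totals were 3917, 6558 and 3646. REG against WT gave 1616 calls without REG replicate 3 and 0 in the other settings that hold WT, so the lowest and highest counts with 1 library left out were 0 and 1616. The cause of these shifts was not tested.

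The labels give no pairing by replicate number, and none was assumed. Deviations of same-numbered libraries correlated at −0.07, 0.05 and 0.06, and those of other pairs at −0.13 to 0.14. With 3 libraries a group, such values cannot exclude a pairing. A replicate block moved the count from 10653 to 9373. Of the named genes, 21 lost their call with MUT replicate 2 alone, 10 without MUT replicate 3, and 12 after subtraction, where Col4a6 lost its call as well and changed sign. Signs turned only for genes without a call and for Col4a6, whose change was 0.16 after subtraction and 0.53 with MUT replicate 2 alone as well. Twist1 read −0.095 with MUT replicate 2 alone and −0.49 after subtraction as well. Atf6 read −0.84, −0.83 and −0.75 under quantile scaling, total-read scaling and subtraction, −0.63 with MUT replicate 2 alone, −1.01 with both, and −0.36 to 0.38 with 1 library left out (below 0 without MUT replicate 1 or REG replicate 3). Dnajb9 read −0.47 under total-read scaling, −1.06 with MUT replicate 2 alone, −1.45 after subtraction as well, and −0.60 to 0.98 with 1 library left out (below 0 without MUT replicate 3 or REG replicate 3). Krt5 read 0.60, 0.73 and 0.21 under trimmed-mean scaling, quantile scaling and subtraction, 0.40 with MUT replicate 2 alone, 1.53 with both, and −0.41 to 0.32 with 1 library left out (above 0 without MUT replicate 1 or REG replicate 3). Map2 read 0.19 under trimmed-mean scaling, 0.0042 after subtraction and 0.86 with MUT replicate 2 alone as well. The medians of 18 of the 44 lists changed sign over the 5 scalings, and 6 did so relative to all genes. Depth is lowest in MUT replicate 2, where a scaled signal of 1 stands for few reads.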

Other observations

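Many genes with kept increases lay outside the gene lists, and the examples here were chosen after their values were seen. Of the 238 genes, 208 were protein-coding genes outside the receptor families, as were 17731 of the 29107 genes tested. Several encode further products of fibroblasts and bone-forming mesenchyme. Vim, the intermediate filament of mesenchymal cells, read 21.6, 22.3 and 21.2 in MUT and 352, 436 and 311 in REG, and Mgp, an inhibitor of mineralization, read 1.97, 3.09 and 1.3 in MUT and 28.3, 45.8 and 40.8 in REG. Cdh11, the cadherin of osteoblasts and mesenchyme, read 15, 10.01 and 7.31 in MUT and 88.6, 77.3 and 90.6 in REG, and Clec11a, a secreted factor that promotes bone formation, read 3.04, 1.5 and 2.96 in MUT and 31.5, 21.7 and 32.4 in REG. All REG libraries of these genes lay above all MUT libraries. The secreted protease Htra1 (4.15 ± 0.41), the fibril protein Dpt (3.71 ± 0.64) and the surface protein Lrrc15 (3.92 ± 0.47) changed by similar amounts. Secretory transport was represented by Kdelr2, a receptor that returns proteins to the ER (6.42, 6.07 and 3.43 in MUT and 34.1, 45.4 and 30.7 in REG), and by Sec24d, a coat protein of the vesicles that carry procollagen (5.4, 4.63 and 3.61 in MUT and 35, 34.4 and 26.7 in REG). Among transcription factors, Cebpb, Cebpd and Srf changed by 2.88, 2.96 and 2.57.

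Genes with kept decreases included developmental transcription factors, again named after their values were seen. Their share among these genes was not counted. Of the 482 genes, 246 were protein-coding outside the receptor families, 118 were long noncoding RNAs and 41 were receptor genes. Among the 29107 genes tested, these types had 17731, 4488 and 1018 members. The receptor genes define the background, so a decrease can be kept and still hold background. Its part in the other kept decreases was not tested. Hoxb9, a patterning gene of the trunk, read 47, 266 and 96.4 in MUT and 7.14, 4.91 and 1.43 in REG, with 2881, 2665 and 4595 estimated reads in MUT where the background density predicts 52, 4.76 and 33.9. Hoxd13, a gene of limb and tail, read 13.1, 38.3 and 28.8 in MUT and 0.949, 1.4 and 0.294 in REG. The neural factor Pou3f2 read 23.8, 95.8 and 51.6 in MUT and 3.6, 5.79 and 1.2 in REG, its relative Pou3f3 read 26.7, 102 and 53.3 in MUT and 2.45, 8.9 and 1.39 in REG, and the kidney and neural factor Lhx1 read 11.7, 46.2 and 23.6 in MUT and 2.13, 1.11 and 0.923 in REG. For each of them MUT replicate 2 was the highest MUT library and REG was near WT, whose means were 3.92, 0.688, 1.63, 2.89 and 1.74 in the same order.

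Of the lists not described above, glycolysis and hypoxia genes had 11 of 22 higher and 1 lower, and cell cycle genes 5 of 25 higher and 0 lower. Chemokines had 4 of 21 tested higher and 0 lower, and interferon-stimulated genes 4 of 20 higher and 2 lower. No call was kept in any of these 4 lists. T and NK cell markers had 0 of 16 higher and 4 lower, adipocyte markers 1 of 14 higher and 3 lower, and Schwann cell markers 3 of 14 higher and 3 lower, with 1 kept call in these 3 lists, the lower Ngfr, a neurotrophin receptor (1.94, 6.66 and 2.43 in MUT and 0.281, 0.0682 and 0.695 in REG).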
